A study of Rattus norvegicus with 21 samples.

Results

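The genes described here encode the tracks and motors of microtubule transport: alpha and beta tubulins, kinesins with their light chains, cytoplasmic dynein subunits and dynactin subunits. They were taken by gene symbol from the deposited table, as every symbol that starts with Kif or Klc and a digit, or with Dync, Dynl, Dctn, Tuba or Tubb, whatever its expression. This gave 72 table entries for 69 symbols, each represented by its entry with the highest mean. Of these, 46 symbols were above 0 in at least 3 of the 21 cells and were kept, out of 7927 such symbols among 16245 in the table. The 46 comprise 9 tubulins, 18 kinesin heavy or light chains, 12 dynein subunits, 6 dynactin subunits and Kif1bp, which matches the symbol rule but encodes a kinesin-binding protein and no motor.

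The study asked how factors secreted by oligodendrocytes act on hippocampal GABAergic neurons, and each library holds the aspirated contents of 1 neuron taken after patch-clamp recording. The donors were VGAT-Venus transgenic Wistar rats, in which the vesicular GABA transporter gene marks GABAergic cells, and their hippocampi were dissected at embryonic day 18 and cultured for 17 days in every group. Glia-containing cultures gave 2 of the 4 groups, with 5 pyramidal and 6 GABAergic cells, and the others were 5 GABAergic neurons from purified cultures, and 5 GABAergic neurons from purified cultures that received oligodendrocyte conditioned medium (OCM) on day 3 in vitro. Purified cultures had been given the antimitotic agents FdU and U at 5 µM from 24 h after dissection, removed after 36 h, whereas glia-containing cultures had none, so the agents and the lack of glia cannot be told apart. The medium came from oligodendrocytes of postnatal day 2 Wistar cortex that had been cultured for 7 to 15 days. No label ties a neuron to an animal or a dish, so a group counts as 1 sample, no test was run, and SDs and ranges give the spread between cells.

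Microtubules are polymers of alpha and beta tubulin pairs, and neurons use several genes for each that differ by developmental stage and cell type. Kinesins mostly carry vesicles, organelles and RNA away from the cell body, while cytoplasmic dynein, which needs the dynactin complex to run far, carries cargo back. Because axons and dendrites are long, neurons depend on this traffic for synaptic supply, growth and survival.

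The upstream windows of 2 pairs of neighbouring, similar tubulin genes are shown because the members of each pair had unlike differences between purified and glia-cultured GABAergic cells: 1.30 for Tuba1a and -0.31 for Tuba1b, and 3.47 for Tubb2b and -0.45 for Tubb2a on a log2 scale. Of the 4, only Tuba1a had no overlap between these groups. Each sequence is the 250 bases before the annotated start, from RefSeq on GRCr8, read 5′ to 3′ on the gene's strand. Capitals mark 3 motifs searched on both strands: the letters TATAAA of the TATA box, the letters CCAAT of the CCAAT box, and the letters GGGCGG of the GC box. A match on the opposite strand appears as its reverse complement. An opposite-strand CCAAT box can share letters with a GC box, and 0 of the matches in the 4 windows overlapped another. Tuba1a lies at chr7:131995820-131996069 and Tuba1b at chr7:131972588-131972837, both on the minus strand.
Tuba1a: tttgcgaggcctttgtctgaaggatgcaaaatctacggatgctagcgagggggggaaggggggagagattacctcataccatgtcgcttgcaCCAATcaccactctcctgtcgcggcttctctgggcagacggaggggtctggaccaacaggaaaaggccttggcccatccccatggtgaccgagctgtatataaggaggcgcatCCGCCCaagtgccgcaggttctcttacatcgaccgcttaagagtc
Tuba1b: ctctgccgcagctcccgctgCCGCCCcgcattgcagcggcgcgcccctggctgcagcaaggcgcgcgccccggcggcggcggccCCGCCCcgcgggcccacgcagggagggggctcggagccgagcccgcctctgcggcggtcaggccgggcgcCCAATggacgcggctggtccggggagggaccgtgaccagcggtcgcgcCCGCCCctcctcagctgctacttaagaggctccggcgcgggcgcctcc
Tubb2a lies at chr17:31001936-31002185 and Tubb2b at chr17:30952836-30953085, both on the plus strand.
Tubb2a: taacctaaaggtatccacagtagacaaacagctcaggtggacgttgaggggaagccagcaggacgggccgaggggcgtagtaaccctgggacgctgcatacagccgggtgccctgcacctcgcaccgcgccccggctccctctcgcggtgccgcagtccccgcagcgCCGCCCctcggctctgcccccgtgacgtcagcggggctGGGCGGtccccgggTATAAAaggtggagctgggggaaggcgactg
Tubb2b: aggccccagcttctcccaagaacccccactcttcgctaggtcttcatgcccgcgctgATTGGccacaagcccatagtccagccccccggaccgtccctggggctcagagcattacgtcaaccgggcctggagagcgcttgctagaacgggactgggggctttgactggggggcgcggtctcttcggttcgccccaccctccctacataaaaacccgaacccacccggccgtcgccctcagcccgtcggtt
The Tuba1a window held 1 CCAAT box starting 158 bases and 1 GC box 45 bases before the start, and the Tuba1b window held 1 CCAAT box at 96 and 3 GC boxes at 230, 166 and 48 bases. In Tubb2a a TATA box stood 31 bases before the start beside GC boxes at 83 and 45 bases, while the Tubb2b window held only a CCAAT box at 193 bases. The longest run shared by the Tuba1a and Tuba1b windows was 8 bases, and 7 bases for Tubb2a and Tubb2b. Of the 46 genes, 37 had such a window, in 39 entries. The TATA box letters were found in 15.4% of these entries and in 12.9% of all 33469 windows of this length, those of the CCAAT box in 48.7% and 34.02%, and those of the GC box in 74.4% and 30.5%. The 33469 windows were not limited to genes detected in these cells, whereas the 46 genes were kept by detection, so the 2 sets are not matched. A match describes the letters only, and no binding was measured.

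The cells held 1817671 to 25160911 recovered reads. Of the 46, the pyramidal cells had 22, 30, 22, 30 and 22 above 0, the purified cells 26, 29, 27, 25 and 29, the OCM-treated cells 35, 41, 29, 30 and 27, and the glia-cultured GABAergic cells 31 to 42. After thinning to the smallest depth these counts were 20 to 30, 25 to 29, 26 to 36 and 30 to 41 in the same order of groups. The mean numbers of all symbols above 0 also differed, at 3024, 2915, 4150 and 4890 in that order. After thinning they were 2908, 2808, 3942 and 4738. In these data a gene that is not expressed and a transcript lost in aspiration or amplification both read as 0. Pyramidal cell 3 went against its label: Slc17a7, the glutamate transporter that defines these neurons, was at 0, as were Slc17a6 and Neurod6, and Mbp at 278859, Apoe at 59681, Aif1 at 12526 and Aurkb at 5202 mark oligodendrocytes, astrocytes, microglia and dividing cells. Among pyramidal markers it also had Neurod2 at 1770.1, the highest of the 21 cells, and Bhlhe22 at 46.9. Pyramidal cell 4 had Slc17a7 at 7887 but also Mbp at 95386. Glial marker genes made up 3.27% and 1.48% of these cells and at most 0.0551% of any other cell. Sample titles open with P, S or ech, letters with no stated meaning that overlap with the groups: the pyramidal cells were 3 P and 2 S, the glia-cultured GABAergic cells 3 P, 1 S and 2 ech, the purified cells 4 S and 1 P, and the OCM-treated cells all S.

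Differences between groups are given as the difference of the mean log2 of the normalized value plus 1, over genes above 0 in at least 3 cells of the comparison. A size of 2 is called 4-fold, and groups are called separated where no cell of one overlaps with the other. The 4 comparisons share groups, the glia-cultured GABAergic cells standing in 3 of them. On this scale a change between 0 and a value counts for far more than a change among high values, so the differences largely follow how many cells held a gene.

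In pyramidal against GABAergic cells with glia, 42 of the genes were measured and their median difference was -1.93, against -2.05 for all 6571 symbols. None was 4-fold higher where 7.47% of all symbols were, and 20 were 4-fold lower where 50.6% were. No gene was separated in either direction, where 0.243% of all symbols were separated as higher and 1.84% as lower. These zeros moved with single cells: 1 gene was 4-fold higher without pyramidal cell 1, 2, 3 or 5, the genes separated as higher were 2 without pyramidal cell 1 and 1 without pyramidal cell 2, and those separated as lower were 1 without pyramidal cell 1 or 5 or GABAergic cell 1 or 5 and 2 without GABAergic cell 6. Without pyramidal cells 3 and 4 the median was -2.64 against -2.62 for all symbols, and 22 of 40 genes were 4-fold lower against 55.9%. Among cells titled P alone, 3 against 3, 4 genes were separated as higher (Dctn5, Dynll1, Tuba1a and Tubb2b) where 2.49% of symbols were, and 8 as lower where 21.4% were. As a log2 ratio of group means the median was 0.025 against -0.32 for all symbols, and 21 genes lay on each side.

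In purified against glia-cultured GABAergic cells, 40 genes had a median of -1.91 against -2.13 for all 6302 symbols. The 4-fold higher genes numbered 3, Tubb2b, Dynlt1 and Tubb5, where 5.73% of all symbols were, and 19 were 4-fold lower where 51.7% were. Tuba1a was separated as higher, where 0.159% of all symbols were, and Dync1h1 and Dynlt3 as lower, where 1.51% were. The same 3 genes were separated after scaling each cell to 1 total and after thinning. The median was -1.002 without purified cell 2 and -1.30 without glia-cultured cell 4, and 5 genes were 4-fold higher without glia-cultured cell 1. Leaving out purified cell 1 or 3 or glia-cultured cell 3 or 6 gave 2 genes separated as higher.

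In OCM-treated against purified cells, 35 genes had a median of 0.29, below the 1.40 of all 5143 symbols. Of these, 9 were 4-fold higher where 39.3% of all symbols were, and 1, Dynlt1, was 4-fold lower where 10.1% were. No gene was separated, where 0.817% of all symbols were separated as higher and 0.233% as lower. As a log2 ratio of group means the median was 0.25, above the 0.073 of all symbols, so the order of the 2 medians depended on the measure. Among cells titled S, 5 against 4, Dync1h1 and Dynlt3 were separated as higher and Dynll1 as lower, where 1.51% and 0.865% of symbols were. Leaving out OCM-treated cells 2 or 3 or purified cell 2 gave 3 genes that were 4-fold lower, leaving out OCM-treated cell 5 gave 0, and leaving out OCM-treated cells 1 or 4 or purified cells 1 or 5 gave 2. Genes separated as higher were 1 without OCM-treated cell 4 or purified cell 2 and 2 without purified cell 5, and 1 was separated as lower without OCM-treated cell 3 or purified cell 1, 4 or 5.

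In OCM-treated against glia-cultured cells, 43 genes had a median of -0.66 against -0.72 for all 6772 symbols. Tubb2b and Tubb5 were the 2 that were 4-fold higher, where 11% of all symbols were, and 13 were 4-fold lower where 30.4% were. No gene was separated, where 0.177% of all symbols were separated as higher and 0.517% as lower. The count of 4-fold higher genes was 4 without OCM-treated cell 5, and 1 without OCM-treated cells 1 or 3 or glia-cultured cells 2 or 3. Without OCM-treated cell 4, 1 gene was separated as higher.

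**Figure D1:**
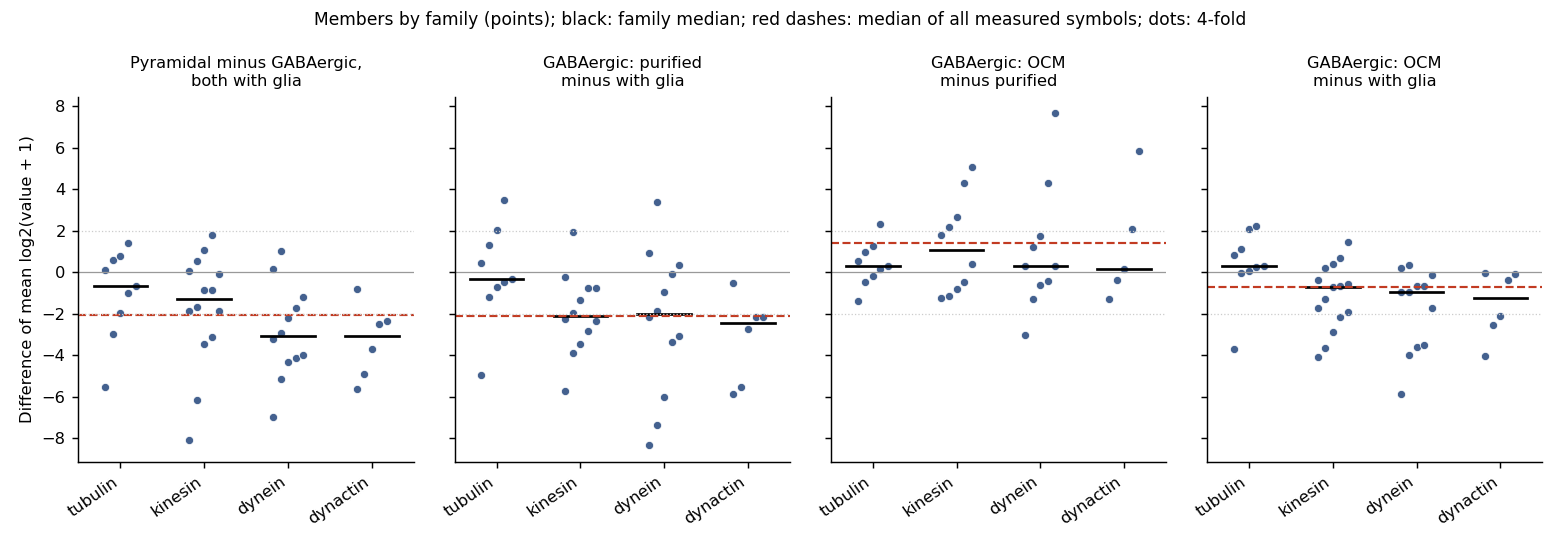
Difference of mean log2(value + 1) for each measured tubulin, kinesin, dynein and dynactin gene (points, by family) in the 4 comparisons. Lines give the median of each family and the median of all symbols, and Kif1bp is not drawn. The median over all measured genes, which is not drawn, lies below 0 in the 3 comparisons with glia-cultured GABAergic cells, and at 0.29 in OCM-treated against purified cells.

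On average the tubulins took a larger share of the transcripts in GABAergic cells from purified cultures, with or without OCM, than in those with glia. The 9 kept tubulins made up 1.99 ± 0.426% of all normalized values in purified cells (SD, n = 5 cells), 1.77 ± 0.355% in OCM-treated cells (n = 5), 1.10 ± 0.379% in glia-cultured GABAergic cells (n = 6) and 1.23 ± 0.635% in pyramidal cells (n = 5). The ranges overlapped: 1.45 to 2.33% in purified and 1.30 to 2.21% in OCM-treated cells against 0.622 to 1.59% in glia-cultured ones. Tuba1a alone made up 1.30 ± 0.337% in purified, 0.964 ± 0.227% in OCM-treated and 0.483 ± 0.152% in glia-cultured GABAergic cells. The other 8 tubulins together made up 0.690 ± 0.136%, 0.805 ± 0.190% and 0.620 ± 0.244%, with a mean summed value of 49341 in purified and 48584 in glia-cultured cells. Of these 8, the means of Tuba1b, Tuba4a, Tubb2a, Tubb4b and Tubb6 were lower in purified than in glia-cultured cells. The group means ran from 0.155 to 0.224% for the kinesins, from 0.182 to 0.239% for dynein and from 0.108 to 0.136% for dynactin. Here and below, the kinesin and dynein shares take in all 37 and 13 symbols that match the rule, kept or not. Shares are not per transcript length, so families are compared only with themselves.

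Tuba1a, the alpha tubulin gene most tied to growing neurons, was high in every cell. Its normalized values were 98504, 142037, 68869.8, 99779 and 63305 in purified cells and 79618, 66990.3, 70776, 45200.5 and 72122 in OCM-treated cells. Pyramidal cells had 61960.2, 31128, 67199, 90606 and 85665, while glia-cultured GABAergic cells ran from 25716 to 53524 with a median of 34282. Every purified cell lay above every glia-cultured GABAergic cell, and 4 of 5 OCM-treated and 4 of 5 pyramidal cells did too. The log2 difference was 1.30 for purified against glia-cultured cells (1.14 to 1.43 when any 1 cell was left out), 0.84 between OCM-treated and glia-cultured cells, -0.46 for OCM-treated against purified and 0.78 for pyramidal against GABAergic cells. Within title letter S the 4 purified cells had 68869.8 or more and the 1 glia-cultured cell had 48891. Within P the 1 purified cell had 63305 and the 3 glia-cultured cells 25716, 35852 and 32712. In the pyramidal group without cells 3 and 4 the difference from GABAergic cells was 0.58.

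Tuba1b, a close paralog next to it on rat chromosome 7 that most cell types express, did not follow. It ran from 14905 to 22016 in purified, 16841 to 29562 in OCM-treated, 5593 to 30176 in pyramidal and 12668 to 32029.8 in glia-cultured GABAergic cells, and all groups overlapped. Its differences were -0.31, -0.02, 0.28 and -0.68 in the order given for Tuba1a, and scaling each cell to 1 total turned OCM-treated against glia-cultured cells to 0.16, as leaving out glia-cultured cell 5 did to 0.089. In rn6 the Tuba1a entry spans chr7:140637280-140640988 and the Tuba1b entry chr7:140614744-140617750. The coding sequences of such paralogs are nearly alike, so how reads were split between them is uncertain.

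The ratio of Tuba1a to Tuba1b within a cell does not depend on how cells were scaled, and was looked at after the values were seen. It was 2.14, 1.88, 2.03, 1.87, 1.02 and 1.53 in the glia-cultured GABAergic cells. Purified cells had 6.61, 6.45, 4.44, 5.20 and 3.74, pyramidal cells 3.44, 2.87, 12.01, 3.003 and 6.23, and OCM-treated cells 4.06, 3.98, 2.83, 1.53 and 3.98. Every purified and every pyramidal cell thus lay above every glia-cultured GABAergic cell, with or without pyramidal cells 3 and 4, and 4 of 5 OCM-treated cells did. The means were 1.75 ± 0.411 (SD, n = 6), 5.29 ± 1.25 (n = 5), 5.51 ± 3.89 (n = 5) and 3.28 ± 1.10 (n = 5) in that order. The pyramidal mean was 3.88 without cell 3. Within S the 4 purified cells had 4.44 or more against 1.53 in the glia-cultured cell, and within P the purified cell had 3.74 against 2.03, 1.87 and 1.02. As the ratio is not per transcript length, it compares cells, not the 2 genes.

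**Figure D2:**
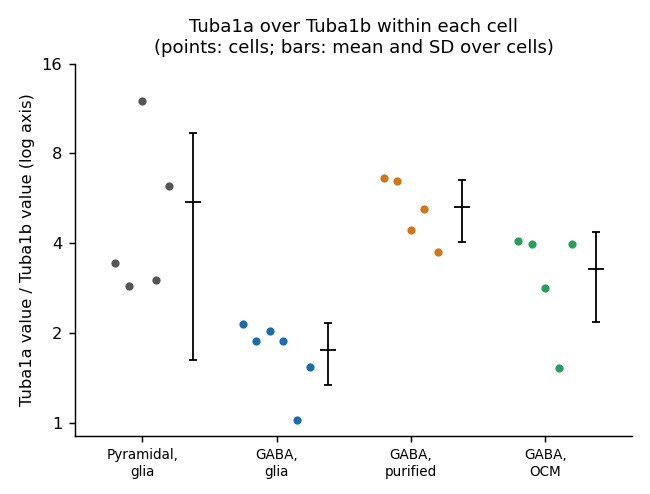
Ratio of the Tuba1a to the Tuba1b normalized value in each cell (points, with the group mean and SD between cells). All 6 glia-cultured GABAergic cells lie between 1.02 and 2.14, below every pyramidal and purified cell.

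Tubb2b, a beta tubulin class known from developing neurons, was 4-fold higher in purified and in OCM-treated cells than in glia-cultured ones. Purified cells had 10717, 3619.8, 2892, 5409 and 4922, OCM-treated cells 3116, 1950.4, 4035, 1625 and 634, and glia-cultured cells 10.98 to 3531 with a median of 677. In glia-cultured cells 1 and 6 the values of 2543 and 3531 reached into or near the purified range, and the other 4 cells were at 740.0 or below. The difference was 3.47 for purified against glia-cultured cells (2.43 to 4.07 without any 1 cell), 2.10 for OCM-treated against glia-cultured and -1.38 for OCM-treated against purified. Leaving out glia-cultured cell 2, at 10.98, took the second of these to 1.05, and among S cells alone it was -0.89. Pyramidal cells had 4686, 0, 1543, 3059.7 and 5851, and their difference of 0.57 from GABAergic cells turned to -0.57 without cells 3 and 4 and to -0.47 without GABAergic cell 2.

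Tubb2a, its neighbour on chromosome 17, overlapped among the GABAergic groups. It ran from 1557 to 3621 in purified, 1953 to 4495 in OCM-treated and 1889.6 to 4836 in glia-cultured cells. Pyramidal cells had 4352, 548, 0, 3026 and 1052, and their difference of -2.99 was -0.85 without cell 3. Reads of the pair may also be split in ways the table does not show.

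Tubb3, the neuron-specific beta tubulin widely used as a neuronal marker, was above 0 in every GABAergic cell. Purified cells had 12853, 9997, 6558, 17805 and 6755, OCM-treated cells 10696, 8402, 7898, 8439 and 8524, and glia-cultured cells 2716 to 16508 with a median of 9052. The 3 groups overlapped, with differences of 0.45, 0.25 and -0.20, the last 2 turning to -0.040 without glia-cultured cell 3 and 0.0093 without purified cell 4. Pyramidal cells had 0, 6322, 0, 9749.7 and 1844: 2 of 5 were at 0, cell 1 among them although its Slc17a7 was 11740. Their difference from GABAergic cells was -5.50, -3.66 without cell 1 and -5.02 without cells 3 and 4.

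Tubb5, the broadly expressed class I beta tubulin, was above 0 in all 21 cells. Purified cells had 6834, 9932, 6613, 11279.7 and 3036, OCM-treated cells 9699, 8117, 13900.1, 10690.1 and 2402 and glia-cultured cells 11.98 to 9261 with a median of 3489. Its differences of 2.03 and 2.20 from glia-cultured cells rested on cell 2 of that group, at 11.98: without it they were 0.63 and 0.80. The Tubb5 entry overlaps those of Flot1 and Ier3, and nothing in the sources used here says whether strand was used in counting.

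Tubb4b, another broadly expressed class, ran from 1769 to 12182 over all 21 cells, and its differences lay between -0.70 and 0.99, the pyramidal one turning from 0.09 to -0.12 when each cell was scaled to 1 total. Its entry overlaps that of Fam166a. Tuba4a, another alpha tubulin, ran from 0 to 9908 and had differences of -1.0001, -1.19, 2.31 and 1.12 for the 4 comparisons from pyramidal onward. The value of 2.31 in OCM-treated against purified cells was 0.91 without purified cell 2. The direction of the other 3 turned with 1 cell: they were 1.12 without pyramidal cell 3, 0.21 without purified cell 2 and -0.77 without glia-cultured cell 6. Tubb6, a class found in many non-neuronal cells, was at 7331 in pyramidal cell 3 and at most 703 in any other cell. It was above 0 in 4 of 6 glia-cultured GABAergic cells, at 0 in all purified cells and at most 3.49 in OCM-treated cells. Its difference of -4.95 for purified against glia-cultured cells (-5.94 to -4.04 without any 1 cell) was the largest in size of any tubulin in that comparison. With 3 reads over the purified group as the floor, it was at least 104-fold lower there than the mean of the glia-cultured cells, and at least 39.6-fold lower without glia-cultured cell 4, at 703.

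**Figure D3:**
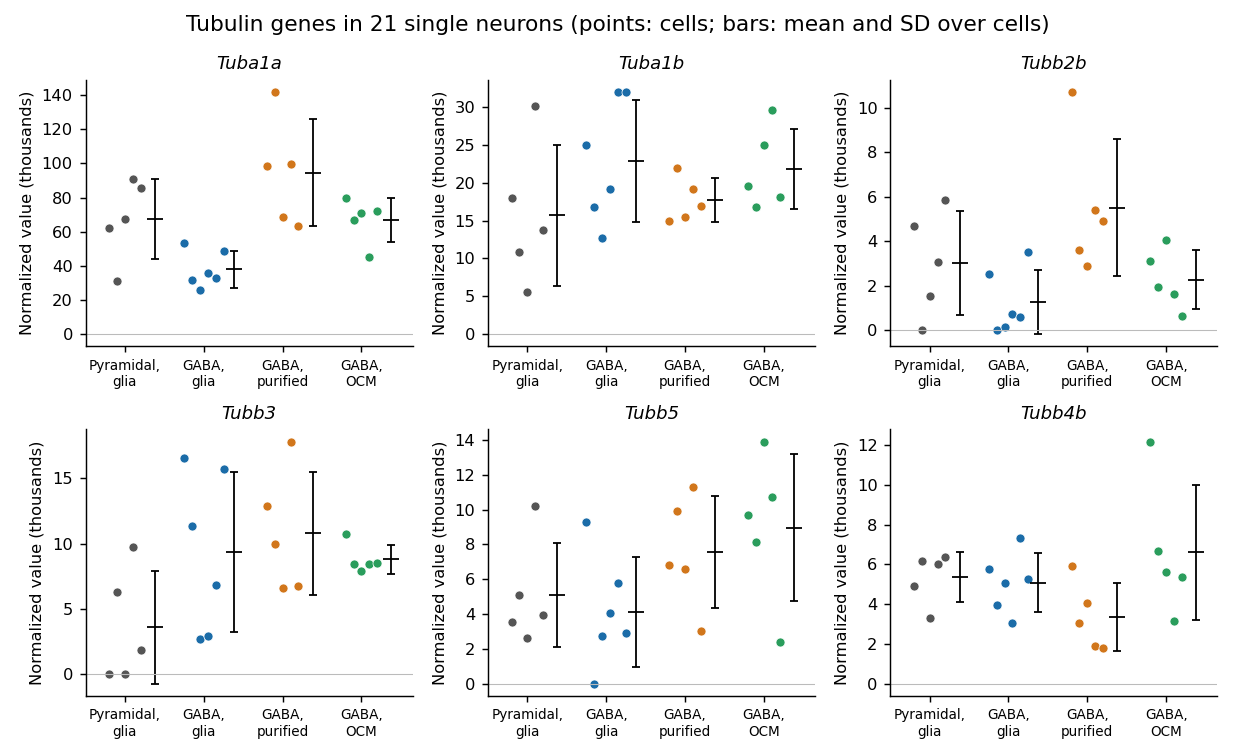
Normalized values of Tuba1a, Tuba1b, Tubb2b, Tubb3, Tubb5 and Tubb4b in each cell (points, by group, with mean and SD between cells). Tuba1a is higher in all 5 purified cells than in any glia-cultured GABAergic cell, while Tuba1b and Tubb3 overlap among the GABAergic groups.

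Kinesin-1 motors carry vesicles along axons. Klc1, a light chain that links the motor to cargo, was above 0 in all 21 cells. It had 1581, 7130.3, 5554, 5947 and 8711 in pyramidal, 2999, 10461, 4263, 6878 and 4654 in purified, 5652, 6422, 10078, 5225 and 9110.0 in OCM-treated and 6083 to 12258 in glia-cultured GABAergic cells. The groups overlapped, with differences of -0.84, -0.76, 0.40 and -0.35.

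Klc2, another light chain, was low in pyramidal cells. They had 0, 0, 11.7, 209.5 and 553, against 397 to 3161 with a median of 1325 in glia-cultured GABAergic cells. Pyramidal cell 5 alone reached into the GABAergic range. The difference was -6.16 (-7.41 to -5.13 without any 1 cell, -7.22 without cells 3 and 4). Purified cells ran from 91.5 to 1461 and OCM-treated cells from 3.05 to 1586, overlapping with glia-cultured ones.

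Kif5a, the kinesin-1 heavy chain restricted to neurons, was at or near 0 in the pyramidal cells. Their values were 0, 0, 0, 0 and 6.98, the last from 9 recovered reads. Glia-cultured GABAergic cells had 0 in cell 6 and 918 to 2306 in the other 5. Purified cells had 0, 2988, 0, 1158 and 1243 and OCM-treated cells 1350.0, 844, 26.3, 479 and 2819.6. The pyramidal difference of -8.06 was the largest in size of any gene here in that comparison (-9.80 to -7.56 without any 1 cell, -7.66 without cells 3 and 4). Among P cells, the 3 pyramidal cells had at most 6.98 and the 3 GABAergic cells at least 984. The differences of -2.26 for purified against glia-cultured and 2.65 for OCM-treated against purified cells fell short of 4-fold without purified cell 1, at -0.66 and 1.05.

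Kif5c, a heavy chain also enriched in neurons, was above 0 in 20 of 21 cells. Pyramidal cells had 2273, 7968, 0, 1589 and 6219, purified cells 5148, 4252, 4879.9, 4936 and 6028, OCM-treated cells 66.2, 5684, 6990.4, 3462 and 4662 and glia-cultured cells 47.4 to 5252 with a median of 2148. The purified cells lay in a narrow range of 4252 to 6028, inside that of pyramidal cells and overlapping with glia-cultured cell 3. Kif5b, the heavy chain that most cell types use, was at 8556 in pyramidal cell 3 and at most 1028 in the other 20 cells, and it was above 0 in 2 of 5 pyramidal, 4 of 6 glia-cultured, 3 of 5 purified and 3 of 5 OCM-treated cells.

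Kinesin-2 motors, which carry vesicles and serve cilia, were found in part of the cells. Kif3a was above 0 in 3 of 5 pyramidal, 4 of 6 glia-cultured, 1 of 5 purified and 4 of 5 OCM-treated cells, with a difference of 4.28 for OCM-treated against purified cells. Purified cell 1, the only one with Kif3a, had 1075 and the OCM-treated cells at most 319, and the log2 ratio of group means was -0.13. Kif3b was above 0 in 1 of 5 pyramidal and 4 of 6 glia-cultured cells (difference -3.13), but the log2 ratio of group means was 0.23, with pyramidal cell 4 at 1828. Kif3c, the neuronal partner of Kif3a, was at 0 in all pyramidal cells and above 0 in 3 of 6 glia-cultured cells, whose mean was at least 17.8-fold above a floor of 3 reads over the pyramidal group, or 11.5-fold without glia-cultured cell 5.

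Kif2a, which shortens microtubules and limits axon branching, was low in purified cells. They had 0, 5.42, 0, 0 and 169.7, OCM-treated cells 1362, 98.7, 0, 1154 and 281, and glia-cultured cells 0 to 3381 with a median of 1221. Both comparisons overlapped, as purified cell 5 lay above glia-cultured cells 3 and 6 and OCM-treated cells 2 and 3, and the differences were -5.73 (-7.28 to -4.93 without any 1 cell) and 5.05 (4.22 to 6.82). Pyramidal cell 3 had 6629, the highest of all cells, and the other pyramidal cells at most 516. The Kif2a entry also overlaps 1 other entry, which lacks a symbol and was not at 0 throughout. Kif1bp, the kinesin-binding protein, was above 0 in all 6 glia-cultured cells at 753 to 4486, and in 3 of 5 pyramidal, 4 of 5 purified and 4 of 5 OCM-treated cells, with differences of -4.87, -4.25, 1.40 and -2.85. Without purified cell 2 the second was -2.67 and the third -0.19, and without OCM-treated cell 5 the third was 3.34 and the last -0.91.

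The kinesin-3 motors, which carry synaptic vesicle precursors and dense-core vesicles, can only be read in part. The Kif1a entry spans only chr9:100225141-100229069 in rn6 and overlaps those of Ppp1r7 and Sned1. It was above 0 in 2 of 5 pyramidal, 4 of 6 glia-cultured, 1 of 5 purified and 1 of 5 OCM-treated cells, with differences of -3.87 and -4.09 from glia-cultured cells. Kif1b was above 0 in 2 cells and was not kept, and a further entry joins its name with those of Cort and Pgd. The kinesins of cell division were rare. Of those kept, Kif20a was above 0 in 6 cells, Kif22 in 7 and Kif20b in 3, with 1308 as the highest value. The Kif20a entry overlaps that of Cdc23. Kif15, which was not kept, was above 0 in 1 OCM-treated cell, at 2131. Kif11, Kif4a and Kif18a were at 0 in all 21.

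**Figure D4:**
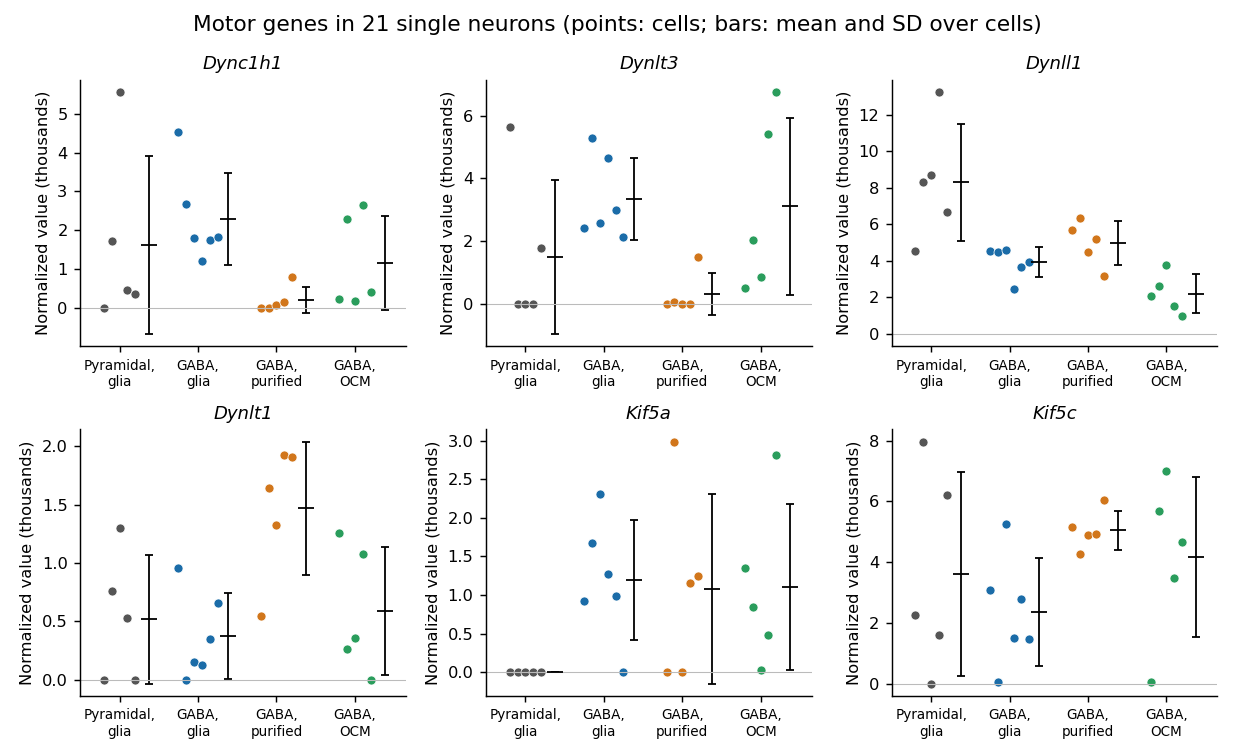
Normalized values of selected motor genes in each cell (points, by group, with mean and SD between cells). Kif5a is at or near 0 in the 5 pyramidal cells, and Dync1h1 and Dynlt3 are lower in every purified cell than in any glia-cultured GABAergic cell.

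Dynein is built on Dync1h1, the heavy chain that holds the motor. In glia-cultured GABAergic cells it ran from 1201 to 4525 with a median of 1803. Purified cells had 2.47, 0, 84.99, 144 and 805, and OCM-treated cells 225, 2289.8, 171, 2641 and 416. Every purified cell lay below every glia-cultured cell, and OCM-treated cells spread over both ranges. The difference was -6.01 for purified against glia-cultured (-7.18 to -4.76 without any 1 cell), 4.28 for OCM-treated against purified (3.03 to 5.44) and -1.73 between OCM-treated and glia-cultured cells. Within S, the 4 purified cells had at most 144, the glia-cultured cell 1819 and the OCM-treated cells at least 171. Pyramidal cells had 0, 1722, 5562, 472 and 366, the highest in cell 3.

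Of the chains that bind cargo to the heavy chain, Dync1i1, the neuronal intermediate chain, was above 0 in 18 cells. It ran from 1275 to 7025 in glia-cultured cells and from 509 to 5106 in OCM-treated cells. Purified cells had 6865, 6742, 2275, 0 and 1752, and their difference of -2.16 rested on cell 4, being 0.21 without it. Dync1i2, the more widespread intermediate chain, was above 0 in 19 cells, with differences of -3.23, -0.93, 0.28 and -0.65. The first was -1.96 without pyramidal cell 5, and purified cell 4, at 0, set the next 2, which turned to 0.92 and -1.56 without it. The light intermediate chains Dync1li1 and Dync1li2 were above 0 in 4 and 5 of the 6 glia-cultured cells and in 1 to 3 of 5 cells in every other group. On the log2 scale both were 4-fold lower than glia-cultured cells in all 3 comparisons with them whichever cell was left out. Group means of Dync1li2 were closer, at 253 in pyramidal, 154 in purified and 319 in OCM-treated against 410 in glia-cultured cells. Those of Dync1li1 were 11.8, 174 and 4.61 against 391.

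Dynlt3, a light chain at the cargo end of the motor, gave the largest difference in size among these genes. Glia-cultured cells ran from 2130.2 to 5296, purified cells had 0, 62.4, 0, 0 and 1501, and OCM-treated cells 510.2, 2024, 837, 5404 and 6759. Every purified cell lay below every glia-cultured cell, and only purified cell 5 reached the OCM-treated range. The difference was -8.31 (-10.12 to -7.49 without any 1 cell) for purified against glia-cultured cells, 7.66 (6.83 to 9.47) for OCM-treated against purified and -0.66 between OCM-treated and glia-cultured cells. Summed values of the GABAergic marker genes were also lower in purified cells, at 4402 to 14477. They were 14414 to 44385 in glia-cultured and 10727 to 25816 in OCM-treated cells. Gad1 and Gad2 made up most of these sums. Slc32a1 ran from 390 to 1357 in purified and 171 to 882 in glia-cultured cells, and Dlx1 from 0 to 1545 and 0 to 813. Dlx5 was at 0 in purified cells and reached 277 in glia-cultured ones. The part of these markers in the results was not tested. For Dynlt3, pyramidal cells had 5642, 0, 0, 0 and 1789.8, a difference of -6.97 from glia-cultured GABAergic cells.

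Dynlt1, its paralog, went the other way. Purified cells had 545, 1641, 1329.6, 1921 and 1909, OCM-treated cells 1253, 261, 361, 1073 and 0 and glia-cultured cells 0 to 958 with a median of 254. Purified cells 2 to 5 lay above every glia-cultured and every OCM-treated cell, while purified cell 1 lay among them. The difference from glia-cultured cells was 3.38, and 1.98 without glia-cultured cell 2. The difference of OCM-treated from purified cells was -3.01, and -1.17 without OCM-treated cell 5. The Dynlt1 entry overlaps 1 other entry, which lacks a symbol and was not at 0 throughout, so how reads were split between them is uncertain.

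Dynll1, a light chain shared by dynein and many other complexes, was above 0 in all 21 cells. It was at 4539, 8304, 8699, 13257 and 6686 in pyramidal cells and at 2477 to 4584 in glia-cultured GABAergic cells. Purified cells had 5697, 6351, 4502, 5217 and 3196 and OCM-treated cells 2061, 2602, 3799, 1550.0 and 997. Pyramidal cells other than cell 1 lay above every glia-cultured GABAergic cell (difference 1.01, 0.71 without cells 3 and 4). OCM-treated cells other than cell 3 lay below every purified cell (difference -1.29), and all 5 lay within or below the glia-cultured range (difference -0.96). Dynlrb1, a roadblock light chain, was also above 0 in all cells, ran from 496 to 3498 and had differences of -0.09 to 0.29. Scaling each cell to 1 total turned its pyramidal difference from 0.14 to -0.08 and its purified one from -0.09 to 0.06. Dynll2 was above 0 in 20 cells, with differences of -2.19, -1.88, 1.73 and -0.15, the first being -0.27 without pyramidal cell 1. Without purified cell 2, at 2.71, the second was -0.36 and the third 0.20, and without glia-cultured cell 2 the last was 0.084.

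Dynein-2 is the motor of cilia, and its 2 kept genes did not follow each other. Dync2h1, its heavy chain, was above 0 in 5 of 6 glia-cultured cells at up to 2067, in 2 of 5 pyramidal cells, in 1 purified cell at 1.36 and in 1 OCM-treated cell at 441. Its differences from glia-cultured cells were -5.12, -7.37 and -5.86 for pyramidal, purified and OCM-treated cells. Markers of ciliated cells summed to at most 258 in glia-cultured GABAergic cells. Dync2li1, its light intermediate chain, was at 0 in all OCM-treated cells and above 0 in 3 of 6 glia-cultured cells, whose mean was at least 451-fold above a floor of 3 reads over the OCM-treated group, or 213-fold without glia-cultured cell 2. Purified cells had 0, 3944, 1642, 0 and 0, a mean of 1117 against 419.5 in glia-cultured cells and a difference of 0.91 (-0.95 to 2.30 without any 1 cell). Pyramidal cells had Dync2li1 only in cell 4, at 746.

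The 6 dynactin subunits differed from one another in how often they were found. Dctn1, the p150 subunit that joins dynein to microtubules, was above 0 in all 6 glia-cultured cells at 336 to 3267 and in all 5 OCM-treated cells at 661 to 1279. Purified cells had 0, 1953, 529, 0 and 0 and pyramidal cells 1572, 1604, 0, 0 and 0, so that 2 of 5 in each group lay within the glia-cultured range and the rest at 0. The differences were -5.60, -5.86, 5.85 and -0.01, and the first 3 were at their weakest -4.54, -4.86 and 4.85 whichever cell was left out, while the last turned to 0.35 without glia-cultured cell 2. The ratio of group means was far closer to 1, at 0.530 for pyramidal over GABAergic cells.

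Dctn2, the dynamitin subunit, was above 0 in 20 cells, the exception being pyramidal cell 3. Purified cells had 4711, 4716, 1979, 3727 and 567 and OCM-treated cells 4509.6, 2664, 1569, 2857 and 3015, all but purified cell 5 within the glia-cultured range of 1138 to 5700.0. The pyramidal difference of -3.67 was -1.64 without cell 3. Dctn3 was above 0 in 19 cells, and its differences of -2.34, -2.15 and 2.08 each turned on 1 cell at 0: they were -0.32 without pyramidal cell 5, and -0.089 and 0.016 without purified cell 2. Dctn5 and Dctn6, of the pointed end, were each above 0 in 17 cells. Dctn6 was lower by -4.88 in pyramidal cells and -2.15 in purified cells, the latter turning to 0.080 without purified cell 2. Dctn4 was at 0 in all 5 purified cells, at least 150-fold below the glia-cultured mean with 3 reads over the group as the floor (55.7-fold without glia-cultured cell 2, at 1026), and was above 0 in 5 of 6 glia-cultured cells.

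**Figure D5:**
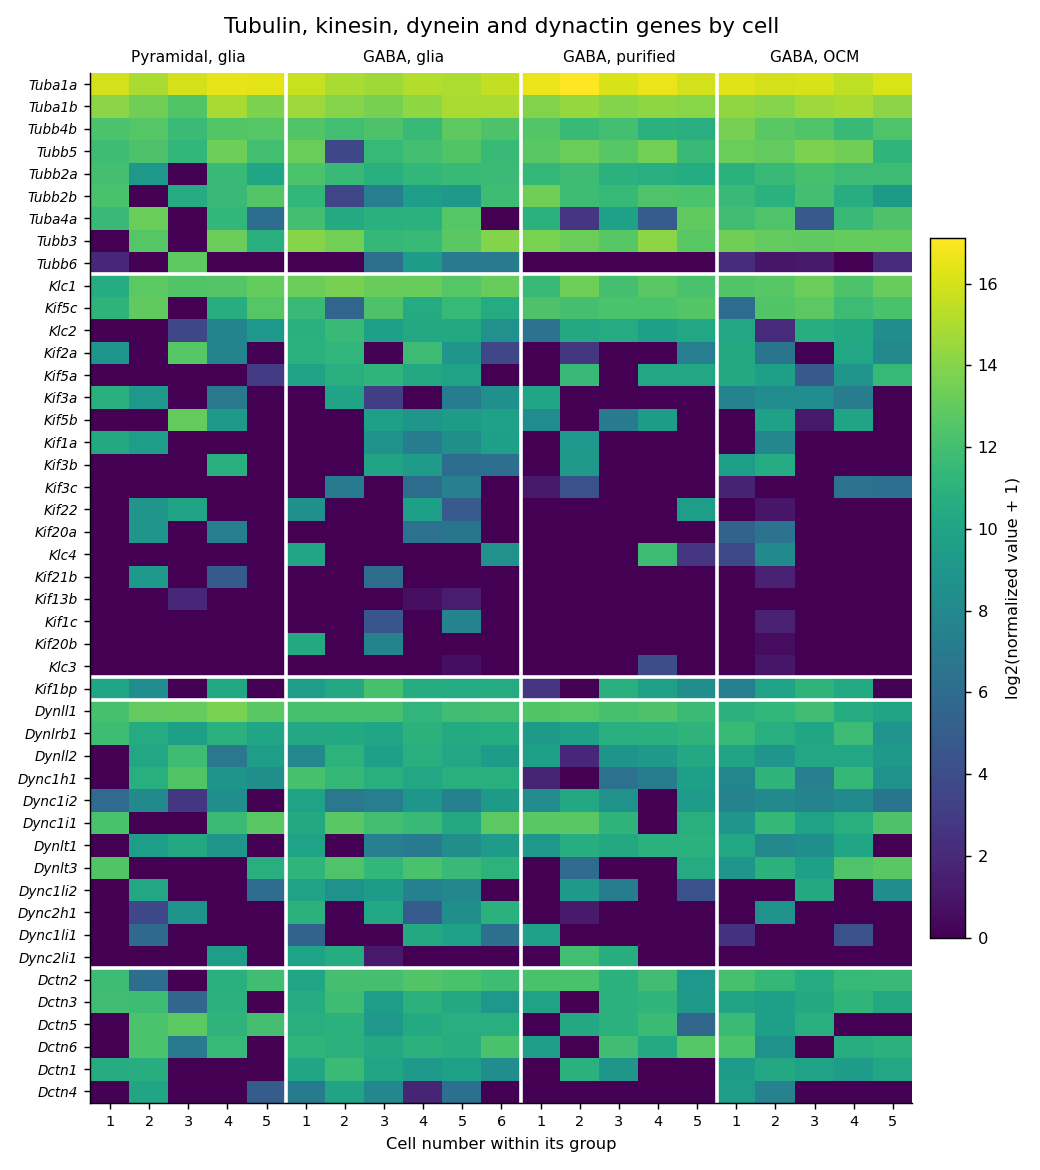
Log2(value + 1) of each kept gene (lines, by family) in each of the 21 cells (columns, by group). The 7 genes above 0 in every cell form continuous bands, and the blank cells show how often the other genes were at 0.

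The genes around the motors were read from lists chosen by role. The first list, of adaptors and regulators that choose cargo or switch motors on, also held Kifc kinesins and further dynactin subunits (Actr and Capz genes). Some of its symbols are other names for genes already included: Jip1 for Mapk8ip1, Lis1 for Pafah1b1 and Kifbp for Kif1bp. Of its 33 symbols, 28 were in the table. Their medians were -2.03 in pyramidal against GABAergic cells, -3.73 in purified against glia-cultured cells, 1.95 in OCM-treated against purified and -1.99 in OCM-treated against glia-cultured cells. In that order 12 of 24, 21 of 24, 1 of 18 and 12 of 24 measured were 4-fold lower, where 50.6%, 51.7%, 10.1% and 30.4% of all symbols were. In the same order 0, 2, 9 and 0 were 4-fold higher, where 7.47%, 5.73%, 39.3% and 11% were. In purified against glia-cultured cells, 1 of the 24 measured was separated as lower, where 1.51% of all symbols were, and 0 as higher. None was separated in the other comparisons. The separated gene was Mapk8ip3, the scaffold that links kinesin-1 and dynein to axonal cargo. Purified cells had 320.1, 0, 0, 0 and 0 against 353 to 2435 in glia-cultured cells, a difference of -8.65. OCM-treated cells had 469, 12.7, 192, 1212 and 35.7, overlapping with both.

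Of 46 genes for microtubule-associated proteins and for folding or modifying tubulin, 40 were in the table, and their medians were -2.45, -1.08, 0.42 and -0.91 in the same order. In those comparisons 1 of 33, 3 of 35, 7 of 32 and 2 of 35 measured were 4-fold higher, where 7.47%, 5.73%, 39.3% and 11% of all symbols were. Those 4-fold lower were 17, 13, 3 and 6, where 50.6%, 51.7%, 10.1% and 30.4% were. Separated as lower were 2 in pyramidal against GABAergic cells and 1 in OCM-treated against purified cells, where 1.84% and 0.233% of all symbols were. Separated as higher were 1 in OCM-treated against purified and 1 in OCM-treated against glia-cultured cells, where 0.817% and 0.177% were. Tubg1 and Tubg2, the gamma tubulins from which microtubules start, were at 0 in all 5 pyramidal cells and above 0 in all 6 glia-cultured GABAergic cells, at 4.35 to 1457 and 238 to 1729. Purified cells had only 1 cell above 0 for each, cell 3, and all 5 OCM-treated cells were above 0. Map1a, which stabilises microtubules in mature neurons, was higher in every OCM-treated cell (1883 to 7573) than in any purified cell (2.71 to 1634), a difference of 4.75. Stmn1, which promotes microtubule disassembly in growing neurons, was the reverse, at 1408 to 5561 against 7199 to 33909.7, a difference of -1.70. Map1b, of growing axons, had differences of 0.64 and -0.11 and overlapped among the GABAergic groups, the second turning to 0.20 without purified cell 4.

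The detection limit leaves out many members of these families. The genes just inside the limit, above 0 in 3 cells, were Kif20b, Kif1c, Klc3 and Kif13b, and those just outside it, above 0 in 2 cells, were Kif13a, Kif1b, Kif16b and Kif23. In all 11 symbols were above 0 in 1 or 2 cells, and 12 were at 0 in every cell. Dynlrb2, another roadblock light chain, was above 0 only in pyramidal cell 3, at 1796. Of the 46 kept, 7 were above 0 in every cell, 19 in at least 18 cells, 14 in 9 to 17 and 13 in 3 to 8.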

How the data were processed

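Per the labels' protocols, SMART-Seq v4 amplified the polyadenylated RNA of each patched neuron, and Nextera XT libraries of it were read as pairs of 75 bases. The submitters' processing notes name STAR 2.4.0, FastQC, Picard, SAMtools, DESeq2 and rn6; the read counter, annotation and strand setting are not stated there. The authors deposited 1 signal value per gene and cell, named as DESeq2-normalized in the deposited table's title. In every cell 100% of values were whole multiples of 1 step within 0.05, which gave back whole reads. A count test was not run, as it would take cells for replicates. Of 34976 table entries 18376 lack a symbol and were used only in totals, and 0 columns lacked a sample.

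Differences of mean log2(value + 1) were computed with Python 3.11.15, numpy 2.4.6 and pandas 2.3.3, and figures drawn with matplotlib 3.10.9. In simulated cells a true difference of 3 or -3 was set in part of the genes. The median recovered over those genes was 2.94 and -3.08 in the pyramidal comparison (6301 genes simulated). It was 2.77 and -2.92 for purified against glia-cultured (5932 genes) and 2.98 and -3.04 for OCM-treated against purified (5515 genes). With OCM-treated set against glia-cultured cells it was 3.004 and -2.95 (5970 genes). The numbers in brackets include the unchanged genes. Recovery was not tested for genes lost from part of the cells. As the differences largely follow how many cells held a gene, the simulation does not show how well those were measured. Floors cover counting error only.

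Members and lists were chosen with earlier results of these data known. Genes named in the text are the 8 per comparison and direction whose difference stays largest without any 1 cell, those whose groups do not overlap, those above 0 in at least 18 cells, and transport and mitotic genes chosen by role. Others named are accounted for by the detection limit or lists. Alternatives were other pseudocounts, filters, scalings, summed entries, the ratio of means, thinning, 1 title letter, and leaving out cells. Thinned detection counts and the Tuba1a to Tuba1b ratio were chosen after seeing the data.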

Additional observations from a re-analysis of the deposited data

Results flagged for a closer look

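In 9 of 128 groups of 5 or 6 cells, 1 cell stood apart from the rest by Dixon's criterion, and the causes were not tested. Chance alone meets this criterion in about 1 in 20 groups of normally distributed values. The values used were not log-transformed and some were 0, so that rate need not hold here. Glia-cultured GABAergic cell 2 had Dctn1 at 3267, against 336 to 1081 in the other cells of its group, and Dctn4 at 1026, against 0 to 248. Glia-cultured cell 6 had Dctn6 at 4630.2, against 1263 to 2392. Glia-cultured cell 3 had Kif1bp at 4486, against 753 to 1537. Glia-cultured cell 4 had Tubb6 at 703, against 0 to 125. Purified cell 5, the only one of its group titled P, had Dync1h1 at 805, against 0 to 144, and Tuba4a at 7808, against 5.42 to 1989. OCM-treated cell 1 had Tubb3 at 10696.5, against 7898 to 8524, and a dynactin share of 0.239%, against 0.0847 to 0.110%.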

How the results depend on the processing

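Across 440 recomputed values of the 40 summaries (medians, counts, shares and detection), 367 stayed within the spread between cells or within 1.5 times the count, and 73 moved; of 1267 recomputed gene differences past 4-fold or separated (68 differences), 1249 stayed, 11 moved and 7 reversed. The cause of each move was not tested. Scaling to 1 total took the median of all symbols from -2.05 to -1.41 (pyramidal), -2.13 to -1.33 (purified), 1.40 to 0.90 (OCM-treated against purified) and -0.72 to -0.41 (OCM-treated against glia-cultured), and the purified median of the genes to -1.33. A pseudocount of 0.1 gave 1 gene 4-fold higher in pyramidal cells. A pseudocount of 10 gave a purified median of -1.43 with 11 genes 4-fold lower, and 1 gene 4-fold higher in OCM-treated against glia-cultured cells. With no filter, 2 genes were 4-fold lower in OCM-treated against purified cells. The log2 ratio of group means gave medians of 0.025 (pyramidal) and -0.43 (purified), and reversed Dctn3 (0.20) and Kif3b (0.23) in pyramidal, Dctn6 (0.061) in purified and Kif3a (-0.13) in OCM-treated against purified cells.

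Cells titled P alone gave a pyramidal median of -3.22, 1 gene 4-fold higher, 4 separated as higher and 8 as lower. Of all symbols, 6.63% were 4-fold higher, 2.49% separated as higher and 21.4% as lower. Cells titled S alone gave, for purified against glia-cultured (4 against 1), a median of -0.62, with 1 gene 4-fold higher and 8 lower. There 5 genes were separated as higher and 5 as lower. All symbols had a median of -1.71, with 16.8% 4-fold higher and 46.7% lower. Of all symbols, 10% and 20.7% were separated as higher and lower. For OCM-treated against purified cells, S cells gave 2 genes 4-fold lower, where 12.3% of all symbols were. They gave 2 separated as higher and 1 as lower, where 1.51% and 0.865% were. For OCM-treated against glia-cultured (5 against 1), S cells gave 4 genes 4-fold higher, where 32.2% of all symbols were. They gave 4 separated as higher and 9 as lower, where 9.37% and 24.7% of all symbols were, and a reversed Tubb2b (-0.89). Over only those entries with a symbol, the tubulin share was 2.57% in purified and 2.14% in OCM-treated cells, the kinesin share 0.233% in pyramidal, 0.268% in glia-cultured GABAergic and 0.262% in purified cells, the dynein share 0.294%, 0.285% and 0.261% in the same groups, and the dynactin share 0.156% in pyramidal and 0.156% in purified cells. Purified cells had a mean of 25.4 genes with at least 10 reads.

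Leaving out each cell in turn, 0 to 1 gene was 4-fold higher in pyramidal cells, 0 to 2 were separated as higher and 0 to 2 as lower. The purified median ran from -2.28 to -1.002, with 2 to 5 genes 4-fold higher and 1 to 2 separated as higher. In OCM-treated against purified cells 0 to 3 genes were 4-fold lower, 0 to 2 separated as higher and 0 to 1 as lower. In OCM-treated against glia-cultured cells 1 to 4 genes were 4-fold higher and 0 to 1 separated as higher. Of the genes past 4-fold, 13 of 20 stayed past it without any 1 cell in pyramidal cells, 1 of 3 higher and 12 of 19 lower in purified cells, 5 of 9 higher and 0 of 1 lower in OCM-treated against purified cells, and 0 of 2 higher and 8 of 13 lower in OCM-treated against glia-cultured cells. Dctn6 in purified cells ran from -3.07 to 0.080 and Dync1i1 from -2.98 to 0.21. With fold bounds for genes at 0 throughout a group, the medians were -1.93, -1.91, 0.28 and -0.66. No paired analysis was possible because no group is replicated beyond its cells and the numbers of cells pair nothing. Cells are single, depth differs, and a value of 0 does not show absence.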
